A study of Homo sapiens with 34 samples.

Results

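The genes described here are 9 secreted or membrane-bound immune ligands of B-cell lymphoma: the chemokines CCL3, CCL4, CCL5, CCL17, CCL22, CXCL9 and CXCL10, and the lymphotoxins LTA and LTB. They were taken by symbol from a table of 31975 genes, each symbol matched 1 row, and they were chosen with earlier results of these data known. RNA sequencing had been done on 34 established human lymphoma cell lines, with 1 library per line, in a study of the chemokine receptor CXCR4 as a radioligand target in mantle cell lymphoma. The lines comprised 11 of mantle cell lymphoma (MCL), 3 of Burkitt lymphoma (BL) and 20 of diffuse large B-cell lymphoma (DLBCL), of which 6 were labelled activated B-cell (ABC) and 14 germinal centre B-cell (GCB). The labels gave no treatment, genotype or culture condition, and marked 8 MCL, 2 BL, 6 ABC DLBCL and 14 GCB DLBCL lines as re-analysed from earlier data. A cell line is 1 patient's tumour cells grown without the T cells, macrophages and stroma of the tissue, and in such bulk RNA fewer expressing cells and less RNA per cell cannot be told apart. The lines were the replicates of a pathology, and no label says whether a line was cultured more than once, so p-values measure the spread between single libraries.

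Chemokines are small proteins that draw cells carrying the matching receptor along a gradient. CCL3 and CCL4 are released by B cells after stimulation of the B-cell receptor and attract T cells and monocytes, as CCL5 does. CCL17 and CCL22 attract regulatory and type 2 helper T cells through CCR4, and CXCL9 and CXCL10 are induced by interferon gamma and attract effector T cells and natural killer cells through CXCR3. LTA is secreted as a homotrimer that binds the TNF receptors TNFRSF1A and TNFRSF1B, or is held at the cell surface by the transmembrane protein LTB, and the LTA-LTB heterotrimer binds LTBR on stromal cells and so shapes lymph nodes and B-cell follicles.

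The 9 genes sit in 4 clusters (GRCh38.p14, from RefSeq). On chromosome 17, CCL5 (ENSG00000271503, 35871491 to 35880360) lies 207.9 kb from CCL3 (ENSG00000277632, 36088256 to 36090143), and CCL3 lies 13.683 kb from CCL4 (ENSG00000275302, 36103827 to 36105614). Beyond CCL4 follow CCL3L3 and CCL4L2, near-identical copies of CCL3 and CCL4 whose reads can be assigned to either. CCL22 (ENSG00000102962, 57357909 to 57366189) and CCL17 (ENSG00000102970, 57396093 to 57416063) are neighbours on chromosome 16, and CXCL9 (ENSG00000138755, 76001275 to 76007509) and CXCL10 (ENSG00000169245, 76021118 to 76023497) on chromosome 4. LTA (ENSG00000226979, 31560610 to 31574324) and LTB (ENSG00000227507, 31580558 to 31582425) flank TNF on chromosome 6 within the major histocompatibility complex.

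RefSeq promoters were at hand for 6 of the 9 genes, and for 4 of them the 250 bases before the transcript start are shown, because each pair of neighbours is compared below. Motifs were searched on both strands and stand in capitals: the interferon-stimulated response element (GAAA and GAAA around 2 free bases), found in 3.02% of the 35116 promoters of the same length, the gamma-interferon-activated site TTCNNNGAA, found in 6.57%, the STAT6 site (TTC and GAA around 4 free bases), found in 5.38%, and the NF-kB consensus, found in 9.96%. The CXCL9 window lies at chr4:76007510-76007759 and the CXCL10 window at chr4:76023498-76023747, both on the minus strand.
CXCL9: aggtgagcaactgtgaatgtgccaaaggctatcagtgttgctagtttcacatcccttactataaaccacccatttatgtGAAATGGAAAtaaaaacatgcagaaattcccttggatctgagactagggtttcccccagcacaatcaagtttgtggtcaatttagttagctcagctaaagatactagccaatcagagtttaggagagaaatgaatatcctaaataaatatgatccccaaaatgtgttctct
CXCL10: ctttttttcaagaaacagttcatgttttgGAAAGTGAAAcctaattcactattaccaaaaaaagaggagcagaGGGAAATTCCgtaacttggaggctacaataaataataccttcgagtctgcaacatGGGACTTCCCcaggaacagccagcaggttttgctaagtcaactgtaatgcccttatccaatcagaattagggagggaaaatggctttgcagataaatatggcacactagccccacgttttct
Each of these windows held the interferon-stimulated response element, at 171 to 162 bases before the start in CXCL9 and at 221 to 212 in CXCL10, and CXCL10 also held the NF-kB consensus at 177 to 168 and at 122 to 113. The LTA window lies at chr6:31572039-31572288 on the plus strand, at the start of the RefSeq transcript used, which is inside the span given above. The LTB window lies at chr6:31582426-31582675 on the minus strand.
LTA: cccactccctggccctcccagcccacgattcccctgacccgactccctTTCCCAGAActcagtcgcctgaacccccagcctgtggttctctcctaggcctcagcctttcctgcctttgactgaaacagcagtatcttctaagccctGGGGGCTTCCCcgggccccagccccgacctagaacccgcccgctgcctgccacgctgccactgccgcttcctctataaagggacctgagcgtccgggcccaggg
LTB: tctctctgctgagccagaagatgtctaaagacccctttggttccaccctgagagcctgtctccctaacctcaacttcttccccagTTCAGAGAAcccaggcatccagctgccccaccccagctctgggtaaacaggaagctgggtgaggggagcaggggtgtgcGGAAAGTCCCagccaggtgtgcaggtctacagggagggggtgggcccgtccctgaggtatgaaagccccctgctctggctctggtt
Both lymphotoxin windows held the NF-kB consensus, in LTA as matches that overlap, and both held the gamma-interferon-activated site, at 202 to 194 bases in LTA and 165 to 157 in LTB. The CCL22 window held the NF-kB consensus, and none of these letters occurred in the CCL3 window. The STAT6 letters were not in any of the 6 windows. A match describes letters only, and no binding was measured here.

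The values were variance-stabilised read counts on a log2 scale, on which a gene with 0 reads sits at 4.55 in every library. Whole reads were recovered from them, and library totals in M reads spanned 60.1 to 109 for MCL, 22.6 to 92.4 for BL, 22.7 to 165 for ABC DLBCL and 2.55 to 108 for GCB DLBCL. A single read was worth a value of 4.70 at the greatest depth and 5.63 at the lowest, so values below 5.63 can be as little as 1 read. The libraries fell into classes: 9 of them had 0 reads of both ZNF593 and EMC6, while each of the other 25 had at least 444 of ZNF593 and 554 of EMC6. This second class held 8 GCB DLBCL lines and the ABC DLBCL line NU-DUL-1, had 2.55 to 22.7 M reads, and contained no MCL and no BL line. The main comparisons with GCB DLBCL are therefore also given for the 25 first-class lines, which keep 11 MCL, 3 BL, 5 ABC DLBCL and 6 GCB DLBCL lines. B-cell identity was as labelled: all 6 B-cell markers had more than 10 reads in every line, and their summed level was 1164 to 6106 rpm (reads per 1000000) in MCL, 2888 to 3682 in BL, 1701 to 4121 in ABC DLBCL and 1307 to 7511 in GCB DLBCL. The macrophage markers CD14 and CD163 and the natural killer cell marker NCAM1 stayed under 1 rpm in all 34 lines, and the T-cell marker CD2 in 33. The other natural killer cell and macrophage markers passed 1 rpm in some lines. NKG7 was under 1 rpm in 25 lines, LYZ in 29, CSF1R in 30 and KLRD1 in 33, with highest values of 7.46, 5.53, 1.62 and 2.40 rpm. Some markers of T cells and of dendritic, stromal and endothelial cells were present in many lines. TRAC was under 1 rpm in 7 lines (median 13.6 rpm), PECAM1 in 9 (median 5.56), CD1C in 16 and COL1A1 in 19, and CD3G reached 163 rpm and LAMP3 204 rpm in Karpas422. The 5 T-cell markers summed to 0.0970 to 137.9 rpm in MCL and 1.09 to 171 in GCB DLBCL, the 4 of 5 macrophage markers in the table to 0.0828 to 5.75 and 0 to 1.47, the 3 dendritic markers to 0 to 129 and 0 to 243, and the 4 stromal and endothelial markers to 6.11 to 141 and 0 to 122, and their part in the results was not tested.

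The ligands varied widely between lines of the same pathology. The MCL line JVM2 held the highest value of all 34 lines for 5 of the 9 genes, CCL3, CCL4, CCL5, CCL22 and LTA, while it had 0 reads of CXCL9. JVM2 was also the MCL line with the highest summed T-cell (137.9 rpm), natural killer cell (3.10 rpm) and dendritic (129 rpm) markers, whose part in its ligand values was not tested. The highest CCL17 and LTB values were both in the GCB DLBCL line Pfeiffer, and the highest CXCL9 and CXCL10 values were both in the ABC DLBCL line OCI-Ly10. The MCL line SP-49 was the only line of the 34 with at least 1 rpm of all 9 genes, and the GCB DLBCL line DB had none at 1 rpm. The number of ligands at 1 rpm or more had a median of 6 in MCL (range 3 to 9), 2 in BL (2 to 8), 5.5 in ABC DLBCL (2 to 8) and 2 in GCB DLBCL (0 to 6). LTB was detected with more than 10 reads in 32 lines and LTA in 29, CCL5 in 23, CCL3 and CCL4 in 19 each, CCL22 in 18, CCL17 in 12, CXCL10 in 11 and CXCL9 in 7. This cut is a different level at each depth, so it is harder to pass in the shallow libraries. For example, 10 reads were 3.93 rpm of CCL22 in NU-DHL-1 and 0.0971 rpm of LTA in HBL-2.

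**Figure D1:**
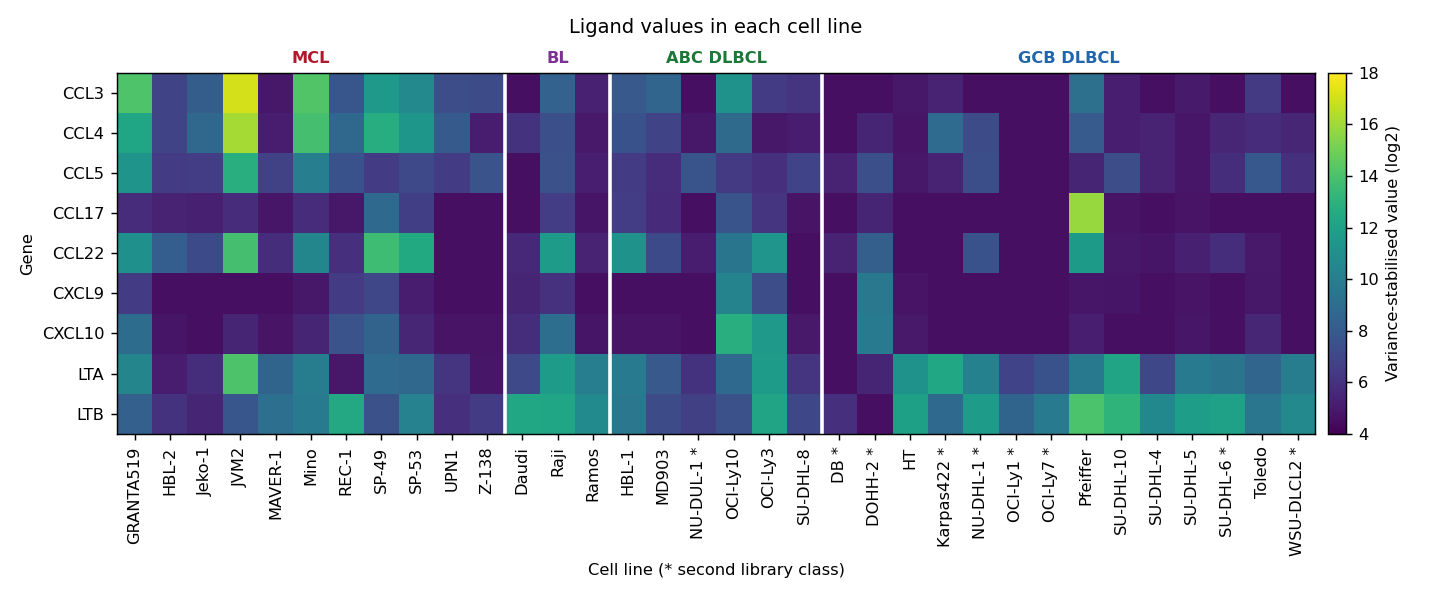
Colour gives the variance-stabilised value (log2) of the 9 ligand genes (rows) in each of the 34 cell lines (columns), grouped by pathology, and an asterisk marks the 9 libraries of the second class. JVM2 reaches 17.08 for CCL3, Pfeiffer 15.82 for CCL17 and OCI-Ly10 12.84 for CXCL10, and 4.55 is the value of 0 reads.

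The inflammatory CC chemokines CCL3, CCL4 and CCL5 were higher in MCL than in GCB DLBCL over all lines, and missed the threshold in the first class alone. CCL3 ranged in MCL between 4.92 in MAVER-1 and 17.08 in JVM2 with a median of 8.12, was 4.55, 8.42 and 5.29 in the BL lines Daudi, Raji and Ramos, ranged between 4.55 and 11.11 in ABC DLBCL with a median of 7.21, and between 4.55 and 9.14 in GCB DLBCL with a median of 4.55. The GCB DLBCL median was the value of 0 reads, found in 8 of the 14 lines, so any read placed a line above it. All 11 MCL lines lay above this median, MAVER-1 with 4 reads. Against the median of the 6 first-class GCB DLBCL lines, 10 of the 11 did. In both settings 5 MCL lines, JVM2, Mino (14.20), GRANTA519 (14.14), SP-49 (11.57) and SP-53 (10.56), lay above the highest GCB DLBCL line, Pfeiffer. In reads, CCL3 made up 148969 of the reads of JVM2, or 2272 rpm, and the median of the 11 MCL lines was 5.18 rpm. The MCL mean was 9.98 ± 3.83 and the GCB DLBCL mean 5.17 ± 1.25 (SD, n = 11 and 14).

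The 5 highest MCL lines of CCL3 were also the 5 highest of CCL4. It ranged between 5.06 in MAVER-1 and 16.11 in JVM2 in MCL (median 8.75), was 6.04, 7.40 and 4.98 in Daudi, Raji and Ramos, ranged between 4.91 and 8.83 in ABC DLBCL (median 5.96), and between 4.55 and 8.90 in GCB DLBCL (median 5.42). The groups overlapped at the lower end: MAVER-1 and Z-138 (5.09) lay below the GCB DLBCL median, while 5 MCL lines lay above the highest GCB DLBCL line, Karpas422. Within the first class, 9 of the 11 MCL lines lay above the GCB DLBCL median and 7 above the highest line, Pfeiffer. CCL4 averaged 9.89 ± 3.64 in MCL and 5.74 ± 1.36 in GCB DLBCL (SD, n = 11 and 14). CCL5 was less spread. It ranged between 6.45 in UPN1 and 12.78 in JVM2 in MCL (median 7.11), was 4.55, 7.45 and 5.16 in Daudi, Raji and Ramos, ranged between 5.80 and 7.66 in ABC DLBCL (median 6.39), and between 4.55 and 7.83 in GCB DLBCL (median 5.42). No MCL line had fewer than 71 reads of CCL5, and 10 of the 14 GCB DLBCL lines lay below the lowest MCL line. Within the first class, 4 of the 6 GCB DLBCL lines lay below it. Only JVM2, GRANTA519 (11.25) and Mino (10.01) exceeded the highest GCB DLBCL line, and the CCL5 means were 8.09 ± 2.22 in MCL and 5.86 ± 1.14 in GCB DLBCL (SD, n = 11 and 14).

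**Figure D2:**
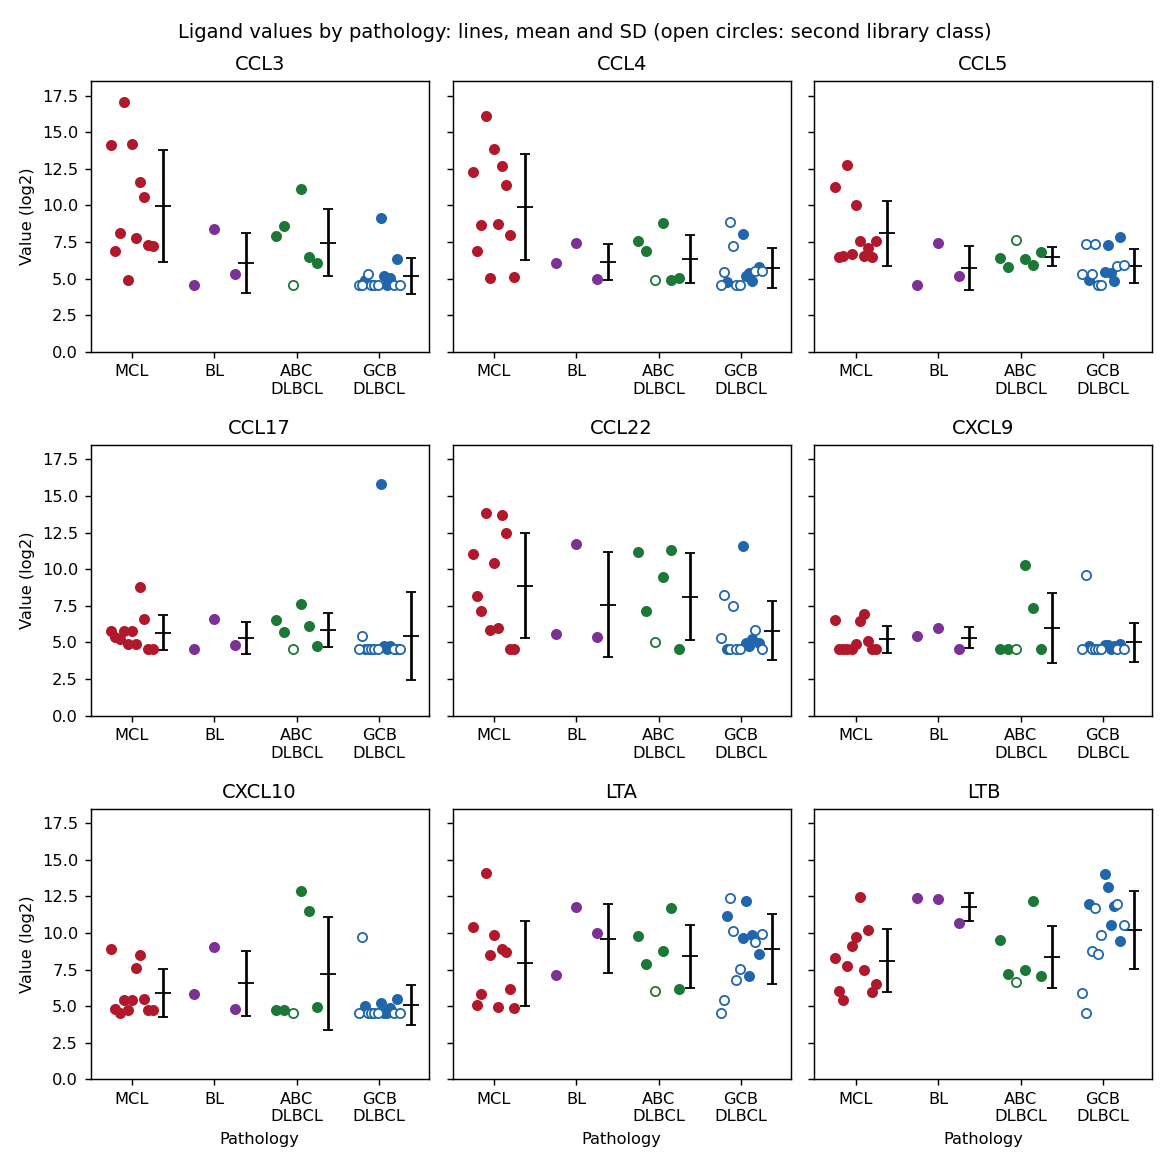
Each panel shows the variance-stabilised values (log2, vertical axis) of 1 ligand gene in the lines of 4 pathologies, with filled circles for the first library class, open circles for the second, and bars for mean and SD. The MCL mean is the highest of the 4 for CCL3 (9.98), CCL4 (9.89), CCL5 (8.09) and CCL22 (8.88) and the lowest for LTA (7.94) and LTB (8.09), and single lines set the top of every panel.

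Across all genes, 1 mean per pathology was fitted with limma, with Benjamini-Hochberg adjustment over all 22167 genes that passed a filter on low values, as all 9 ligands did. The F test, which asks whether any pathology differs, called 13.2% of all genes and 3 of the 9 ligands: CCL3 (F = 8.10, adjusted p = 0.011), CCL4 (F = 7.52, adjusted p = 0.014) and CCL5 (F = 5.08, adjusted p = 0.044). The other 6 had F values of 3.54 for LTB, 2.82 for CCL22, 1.73 for CXCL10, 0.72 for CXCL9, 0.55 for LTA and 0.08 for CCL17, with adjusted p between 0.10 and 0.98. The CCL5 call was marginal: without any 1 of 20 lines its adjusted p was between 0.050 and 0.088, namely HBL-1, OCI-Ly10, OCI-Ly3, DB, HT, Karpas422, OCI-Ly1, OCI-Ly7, SU-DHL-4, SU-DHL-5, SU-DHL-6, WSU-DLCL2, GRANTA519, JVM2, Mino, REC-1, SP-53, Z-138, Ramos and Daudi. In the 25 first-class lines the F test called 3.67% of all genes and 1 ligand, LTB (F = 6.996, adjusted p = 0.046).

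MCL against GCB DLBCL was the contrast in which ligands passed the threshold. In all lines limma called 23.7% of genes in either direction, 2436 as higher and 2809 as lower in MCL, and among the 9 ligands 4, all higher, where 5 had an unadjusted p under 0.05. CCL3 was higher by 4.81 ± 0.99 on the log2 scale (difference ± SE, adjusted p = 0.0015), CCL4 by 4.15 ± 0.92 (adjusted p = 0.0028), CCL5 by 2.23 ± 0.60 (adjusted p = 0.010) and CCL22, a CCR4 ligand, by 3.08 ± 1.10 (adjusted p = 0.040). The median difference of the 9 ligands was 0.81, beside -0.02 over all genes tested. CCL3, CCL4 and CCL5 passed in each of the 34 fits without 1 line, with differences of 4.10, 3.53 and 1.76 without JVM2, and CCL22 missed the threshold in 12 of them, with an adjusted p between 0.050 and 0.083 without DB, HT, Karpas422, OCI-Ly1, OCI-Ly7, SU-DHL-6, WSU-DLCL2, GRANTA519, JVM2, Mino, SP-49 or SP-53. Centring each library on its median moved the median of all genes to -0.17 and the calls to 1473 higher and 4429 lower genes, against 2436 and 2809 without centring, and the same 4 ligands were called.

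The library class moved with this contrast, since 8 of the 14 GCB DLBCL lines and no MCL line were of the second class. In the first-class lines, 2.96% of genes were called in either direction, 372 as higher and 273 as lower in MCL, and 1 ligand, LTB, as lower. The differences in CCL3, CCL4, CCL5 and CCL22 were then 4.12 ± 1.43, 4.21 ± 1.31, 2.14 ± 0.84 and 2.87 ± 1.57, with adjusted p of 0.12, 0.077, 0.18 and 0.36 and unadjusted p under 0.05 for CCL3, CCL4 and CCL5. LTB was lower in MCL by 2.12 on the log2 scale in all lines, a difference of -2.12 ± 0.89 (adjusted p = 0.076), and of -3.75 ± 0.95 in the first class (adjusted p = 0.032). CCL3 had at most 1 read in all 9 second-class libraries, with 0 in 8 of them, against 0 reads in 2 of the 25 first-class libraries. NU-DUL-1, which had 22.7 M reads, had 0 reads of CCL3 and 112 of CCL5. For the 8 second-class GCB DLBCL lines, pathology, depth and library class cannot be told apart.

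**Figure D3:**
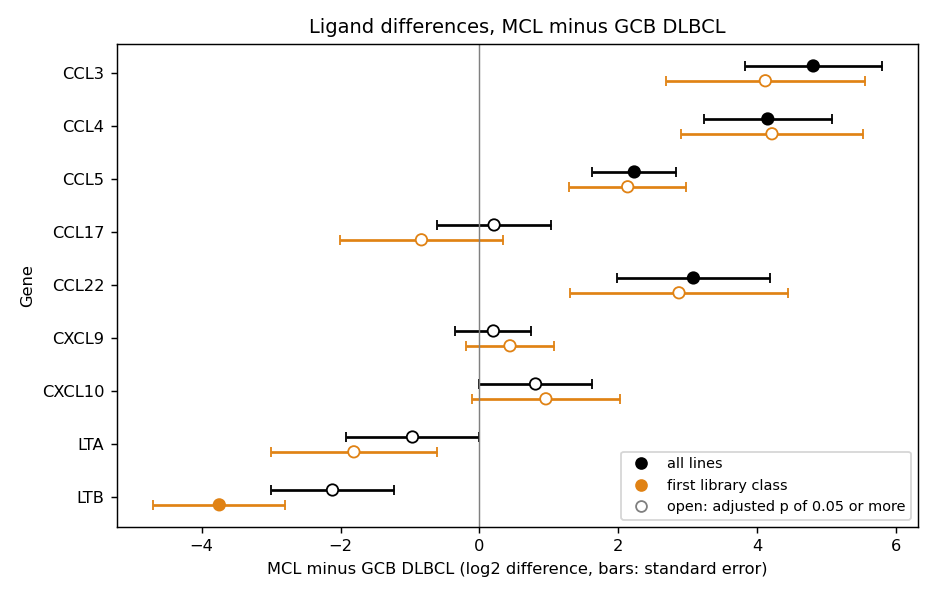
Points give the log2 difference of MCL minus GCB DLBCL for each ligand (rows) with its standard error, in all lines (black) and in the first library class (orange), and open points have an adjusted p of 0.05 or more. CCL3, CCL4, CCL5 and CCL22 are called in all lines (4.81, 4.15, 2.23 and 3.08) and LTB only in the first class (-3.75).

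Reads of CCL3 and CCL4 can be assigned to the copies CCL3L3 (ENSG00000276085) and CCL4L2 (ENSG00000276070), and how the counting divided them is not given in the sources used here. The likeness reaches into the promoter: of 256 aligned columns of the 250-base windows of CCL3 (chr17:36090144-36090393) and CCL3L3 (chr17:36196759-36197008), both on the minus strand, 233 were identical, or 91.0%. Bases that differ stand in capitals.
CCL3: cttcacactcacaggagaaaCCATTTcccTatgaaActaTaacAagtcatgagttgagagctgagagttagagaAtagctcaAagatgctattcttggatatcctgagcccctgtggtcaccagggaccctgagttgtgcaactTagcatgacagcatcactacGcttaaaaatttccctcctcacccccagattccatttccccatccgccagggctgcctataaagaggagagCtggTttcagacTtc
CCL3L3: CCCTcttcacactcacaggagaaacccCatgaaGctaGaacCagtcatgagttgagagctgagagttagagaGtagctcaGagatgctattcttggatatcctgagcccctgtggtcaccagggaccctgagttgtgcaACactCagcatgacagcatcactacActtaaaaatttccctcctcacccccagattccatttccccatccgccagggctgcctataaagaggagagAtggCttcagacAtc
In the 19 lines with at least 100 reads of the pair, CCL3L3 took a median of 16.5% of the summed reads, and in 18 lines CCL4L2 took a median of 46.3% of those of its pair. The share varied widely between lines. CCL3L3 took 5.35 to 24.7% in the 10 MCL lines with enough reads. It took 0% in OCI-Ly3, 0.840% in MD903, 4.08% in OCI-Ly10 and 8.86% in HBL-1, all ABC DLBCL, and 92.8% in the BL line Raji. In the GCB DLBCL lines it took 1% in Toledo, 28.8% in Pfeiffer, 95.0% in SU-DHL-10 and 100% in SU-DHL-4. CCL4L2 took 19.6 to 69.6% in 9 MCL lines, 96.3% in Raji, 94.6% in Daudi, and 98.0% and 98.4% in SU-DHL-10 and SU-DHL-4. Its share was 15.8% in MD903, 27.5% in OCI-Ly10, 30.1% in HBL-1, 52.4% in Pfeiffer and 69.2% in Karpas422, so a low share was not particular to MCL. Raji thus had 623 reads of CCL3 and 8059 of CCL3L3, and SU-DHL-4 had 0 and 128.

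The copies were also higher in MCL than in GCB DLBCL over all lines, CCL3L3 by 2.46 ± 0.85 (limma, adjusted p = 0.034) and CCL4L2 by 2.91 ± 0.94 (adjusted p = 0.026). In the first class the differences were 2.20 ± 1.24 (adjusted p = 0.38) and 2.86 ± 1.31 (adjusted p = 0.26). With the reads of each pair summed, a choice made after seeing the data, CCL3 and CCL4 differed by 4.20 ± 1.03 (adjusted p = 0.0059) and 3.69 ± 1.03 (adjusted p = 0.012) in all lines, and in the first class the summed differences were 3.56 ± 1.48 (adjusted p = 0.21) and 3.57 ± 1.44 (adjusted p = 0.19). CCL3 averaged 9.98 ± 3.83 in MCL and 6.09 ± 2.05 in BL, while CCL3L3 averaged 8.17 ± 3.18 in MCL and 8.28 ± 3.29 in BL (SD, n = 11 and 3), so the order of these pathologies depended on which copy was read, and neither difference passed the threshold.

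**Figure D4:**
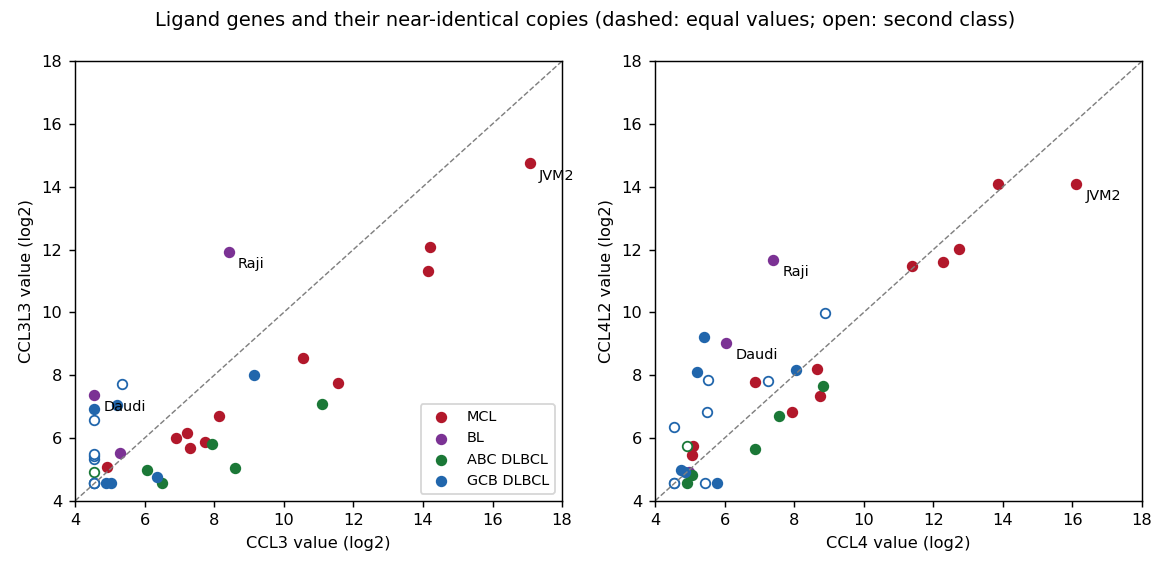
Each point is a cell line, with the variance-stabilised value (log2) of CCL3 against CCL3L3 (left) and of CCL4 against CCL4L2 (right), coloured by pathology, open for the second library class, and with a dashed line at equal values. Raji lies well above the line in both panels, with 8.42 for CCL3 and 11.93 for CCL3L3, while the MCL lines with high CCL3 lie below it on the left.

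The CCR4 ligands CCL22 and CCL17 varied widely between lines, and several lines had 0 reads of either gene. CCL22 ranged between 4.55 and 13.85 in MCL (median 8.20), was 5.60, 11.70 and 5.36 in Daudi, Raji and Ramos, ranged between 4.55 and 11.30 in ABC DLBCL (median 8.30), and between 4.55 and 11.61 in GCB DLBCL (median 4.93). JVM2 (13.85), SP-49 (13.67) and SP-53 (12.50) were the highest lines, and UPN1 and Z-138, both MCL, had 0 reads, so MCL spanned the whole range. Outside MCL, Raji, Pfeiffer (11.61), OCI-Ly3 (11.30) and HBL-1 (11.16) lay above 11, and the remaining 13 GCB DLBCL lines reached at most 8.24, in DOHH-2. The CCL22 means were 8.88 ± 3.56 in MCL, 7.56 ± 3.59 in BL, 8.11 ± 2.97 in ABC DLBCL and 5.80 ± 2.03 in GCB DLBCL (SD, n = 11, 3, 6 and 14).

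CCL17 had more than 10 reads in 12 of the 34 lines. Pfeiffer had 15.82, which was 124414 reads or 1481 rpm, and the next GCB DLBCL line, DOHH-2, had 1 read at 5.43. In the other pathologies the highest lines were SP-49 at 8.79 in MCL, Raji at 6.56 in BL and OCI-Ly10 at 7.65 in ABC DLBCL. Medians were 5.37 in MCL, 4.80 in BL, 5.88 in ABC DLBCL and 4.55 in GCB DLBCL, and no contrast of CCL17 passed the threshold. The MCL minus GCB DLBCL difference of CCL17 was 0.21 ± 0.82 in all lines and turned to -0.84 ± 1.18 in the first class, where Pfeiffer is 1 of 6 lines.

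The interferon-inducible CXCR3 ligands CXCL9 and CXCL10 were absent or nearly so from most lines and high in a few. CXCL10 was 12.84 in OCI-Ly10 (13992 reads, 163 rpm), 11.53 in OCI-Ly3 (11172 reads) and at most 4.93 in the other 4 ABC DLBCL lines. It was 9.75 in DOHH-2 and at most 5.52 in the other 13 GCB DLBCL lines, 5.83, 9.06 and 4.80 in Daudi, Raji and Ramos, and between 4.55 and 8.93 in MCL (median 5.43), highest in GRANTA519, SP-49 (8.47) and REC-1 (7.58). CXCL9 was over 7 in 3 lines, OCI-Ly10 (10.26), DOHH-2 (9.58) and OCI-Ly3 (7.33), which are the 3 highest lines of CXCL10. MCL lines ranged between 4.55 and 6.96 for CXCL9, BL lines were at 5.44, 5.99 and 4.55, and the lines were at 0 reads in 6 of 11 MCL, 1 of 3 BL, 4 of 6 ABC DLBCL and 8 of 14 GCB DLBCL libraries. The DOHH-2 values rest on 81 reads of CXCL9 and 92 of CXCL10 in a second-class library of 3.18 M reads. A count of 0 reads allows a level of up to 3 reads, which is 0.0182 to 1.18 rpm by depth, counting error only.

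Neither CXCL9 nor CXCL10 passed the threshold in any limma contrast. CXCL10 was highest on average in ABC DLBCL at 7.23 ± 3.86, against 5.09 ± 1.38 in GCB DLBCL (SD, n = 6 and 14), a difference of 2.13 ± 0.98 with an unadjusted p of 0.037 by limma that was 0.26 after adjustment. In the first class it was 2.82 ± 1.27 (adjusted p = 0.43). Without OCI-Ly10 the F value of CXCL10 was 0.95, beside 1.73 with it.

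The MCL means of both lymphotoxins were the lowest of the 4 pathologies, where those of CCL3, CCL4 and CCL5 were the highest. By median ABC DLBCL was the lowest for both. MCL and ABC DLBCL differed by -0.26 ± 1.12 for LTB and -0.46 ± 1.21 for LTA (difference ± SE), and neither passed the threshold. LTB, the membrane anchor of the heterotrimer, ranged between 5.43 in Jeko-1 and 12.47 in REC-1 in MCL (median 7.73), was 12.36, 12.29 and 10.65 in Daudi, Raji and Ramos, ranged between 6.65 and 12.18 in ABC DLBCL (median 7.34), and between 4.55 and 14.05 in GCB DLBCL (median 10.55). Only REC-1 of the 11 MCL lines lay above the GCB DLBCL median. In the first class, the 6 GCB DLBCL lines lay between 9.47 in Toledo and 14.05 in Pfeiffer, and 8 of the 11 MCL lines were below Toledo, the exceptions being REC-1, SP-53 (10.22) and Mino (9.75). LTB averaged 8.09 ± 2.16 in MCL and 11.84 ± 1.66 in first-class GCB DLBCL (SD, n = 11 and 6), and 10.20 ± 2.65 over all 14 GCB DLBCL lines. The second class held both low and high GCB DLBCL lines, with DOHH-2 at 0 reads, DB at 3 reads (5.87) and SU-DHL-6 at 12.01. Without DB, DOHH-2 or REC-1 the difference in all lines passed the threshold, at -2.45, -2.55 and -2.55 with adjusted p of 0.042, 0.026 and 0.034.

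LTA, the soluble subunit, was expressed in all pathologies and passed no test. It ranged between 4.87 in Z-138 and 14.11 in JVM2 in MCL (median 8.49), was 7.11, 11.74 and 9.98 in Daudi, Raji and Ramos, ranged between 6.06 and 11.70 in ABC DLBCL (median 8.34), and between 4.55 and 12.37 in GCB DLBCL (median 9.51). The subunits were not always high together. JVM2 ranked first of 34 for LTA and 23rd for LTB (7.73), REC-1 ranked 32nd for LTA with 3 reads and 3rd for LTB, and Daudi ranked 23rd for LTA and 4th for LTB. The GCB DLBCL lines SU-DHL-10 (LTA 12.19, LTB 13.13) and HT (11.14, 11.95) and the ABC DLBCL line OCI-Ly3 (11.70, 12.18) were high for both. LTA averaged 7.94 ± 2.90 in MCL, 9.61 ± 2.34 in BL, 8.39 ± 2.18 in ABC DLBCL and 8.90 ± 2.37 in GCB DLBCL (SD, n = 11, 3, 6 and 14).

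In the other 5 contrasts no ligand was called, in all lines or in the first class. MCL against BL called 1.17% of genes (1.71% in the first class), and 4 ligands had an unadjusted p under 0.05: CCL3 (3.89 ± 1.60), CCL4 (3.75 ± 1.48), CCL5 (2.37 ± 0.98) and LTB (-3.68 ± 1.43), with adjusted p between 0.25 and 0.30 by limma. With the reads of each gene and its copy summed, the CCL3 and CCL4 differences from BL shrank to 1.82 ± 1.67 and 1.96 ± 1.66 (limma, adjusted p = 0.85 and 0.82). MCL against ABC DLBCL called 0.690% of genes (0.785% in the first class), and CCL4 (3.53 ± 1.16, adjusted p = 0.18) and CCL5 (1.59 ± 0.76, adjusted p = 0.45) had an unadjusted p under 0.05. In the fit on the lines marked as re-analysed the CCL4 difference from ABC DLBCL was 4.75 ± 1.12 with an adjusted p of 0.035 by limma. That fit left out the MCL lines HBL-2 (CCL4 6.89), MAVER-1 (5.06) and UPN1 (7.95), all below the MCL median of 8.75. Of 22167 genes it called 134 as higher and 39 as lower in MCL than in ABC DLBCL. ABC against GCB DLBCL called 0.726% of genes (0.230% in the first class), and CXCL10 alone had an unadjusted p under 0.05 in all lines. In the first class LTB also did, at -3.15 ± 1.13 (limma, adjusted p = 0.28). BL against GCB DLBCL called 0.153% of genes (0.147% in the first class) and no ligand had an unadjusted p under 0.05, and BL against ABC DLBCL called 0.117% (0.560% in the first class), with LTB at 3.42 ± 1.55 (adjusted p = 0.54). In the order of means over all lines, MCL stood first and ABC DLBCL next for CCL3, CCL4, CCL5 and CCL22, and none of the 4 passed the test between these pathologies in all lines. BL with 3 lines and ABC DLBCL with 6 gave the widest standard errors, 0.96 for CXCL9 to 1.93 for CCL22.

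Chemokine genes that lie next to each other had high values in many of the same lines. Over the 36 pairs of ligands the median Spearman rho across all 34 lines was 0.35, and it was 0.34 over the 25 first-class lines. CCL17 and CCL22 had 0.86 in all lines and 0.91 in the first class, CXCL9 and CXCL10 had 0.84 and 0.85, and CCL3 and CCL4 had 0.76 and 0.86. A high rho was not particular to neighbours, since CCL3 and CCL17, which lie on different chromosomes, had 0.78 and 0.76. Their Pearson's r was lower, 0.40 in all lines and 0.32 in the first class, and CCL17 had 0 reads in 14 of the 34 lines. Pearson's r was 0.61 for CCL17 and CCL22, and 0.84 without Pfeiffer and SP-49, 0.93 for CXCL9 and CXCL10, and 0.92 for CCL3 and CCL4, and 0.86 without JVM2 and Mino. LTA and LTB, 6.233 kb apart, had a rho of 0.55 in all lines and 0.48 in the first class. These lines share their library class and depth in part, many values sit at 0 reads, and the correlations are given as descriptions. Across clusters, CCL3 and CCL22 had a rho of 0.63 in all lines and 0.74 in the first class, and LTB had a rho of -0.11 with CCL3 and -0.22 with CCL5 in all lines.

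**Figure D5:**
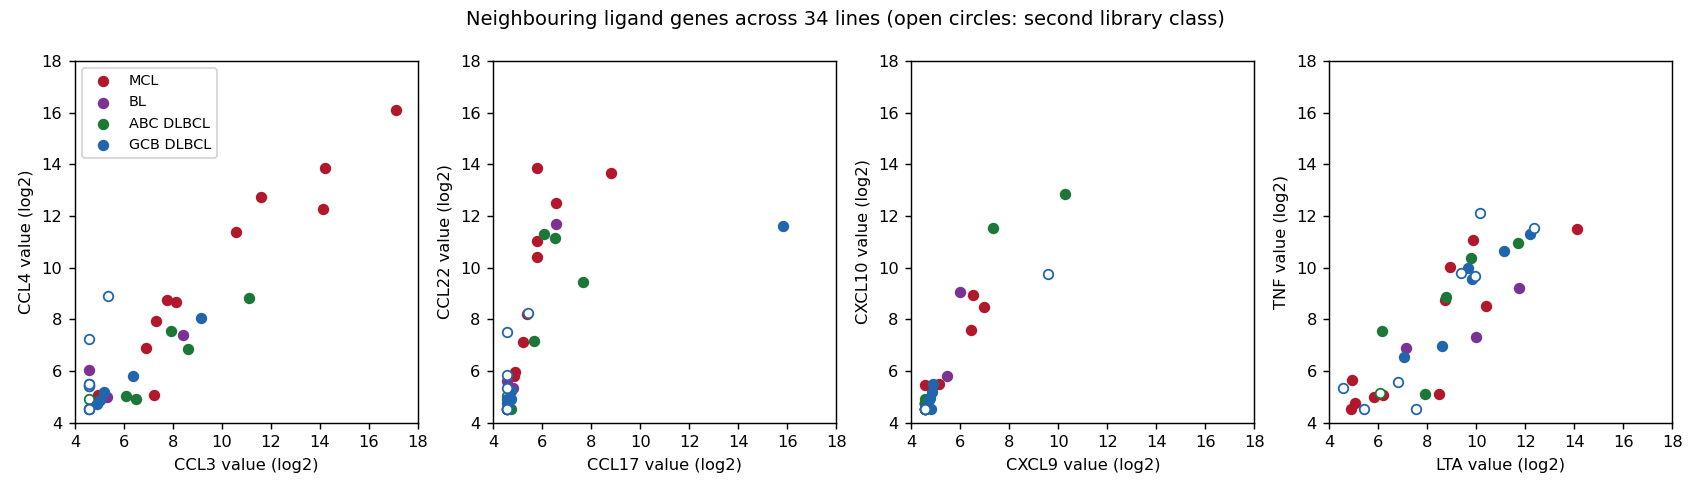
Each point is a cell line, with the variance-stabilised values (log2) of neighbouring genes on the axes of the 4 panels, coloured by pathology and open for the second library class. CCL3 and CCL4 rise along a common diagonal (rho 0.76), Pfeiffer stands alone at the right of the CCL17 and CCL22 panel, and 3 lines make up the top of the CXCL9 and CXCL10 panel.

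For each ligand with more than 10 reads in most of the 25 first-class lines, the 3 genes with the highest Spearman rho over those lines were listed among 22158 others. LTA had its neighbour TNF first (0.86, and 0.85 over all lines), followed by AL109761.5 (0.84) and GALK2 (0.80). CCL22 had SGPP2, a sphingosine phosphatase (0.88), PTGIR, the prostacyclin receptor (0.87), and CXCR3, the receptor of CXCL9 and CXCL10 (0.87). CCL3 had NUDT4 (0.84), PIGR (0.83) and FKBP3 (0.82), CCL4 had CDK5R1 (0.81), FRMD4B (0.80) and AF165138.7 (0.80), and CCL5 had CLIC2 (0.79), DCTD (0.79) and PRR18 (0.78). LTB had PTK2 (0.78), CPEB4 (0.76) and LST1 (0.75), a gene of the same locus. CCL17, CXCL9 and CXCL10 were not searched, because 12, 6 and 10 first-class lines passed 10 reads.

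Receptors for the ligands, and related chemokine receptors, ranged widely in the lines themselves. The list also held CCRL2 and ACKR4, which are not established receptors of these ligands. Of 13 listed receptors 9 could be tested. In MCL against GCB DLBCL 3 were higher and none lower in all lines, CCRL2 among them, and 1 was higher in the first class. Of all genes, 23.7% were called in this contrast in all lines and 2.96% in the first class, in either direction. TNFRSF1B, a receptor of soluble LTA, averaged 10.56 in MCL and 6.59 in GCB DLBCL, a difference of 3.98 ± 0.99 (limma, adjusted p = 0.0061, and 0.039 in the first class). TNFRSF14, which LTA also binds, rose by 2.12 ± 0.57 (adjusted p = 0.010) and CCRL2, an atypical receptor, by 1.84 ± 0.39 (adjusted p = 0.0022), without passing in the first class. CCRL2 was also higher in ABC DLBCL than in GCB DLBCL, by 1.996 ± 0.48 (adjusted p = 0.042, and 0.24 in the first class). LTBR, the receptor of the heterotrimer, reached at most 0.239 rpm in MCL and 0.337 rpm in GCB DLBCL and was at 0 reads in all 3 BL and 6 ABC DLBCL lines. The CCL17 and CCL22 receptor CCR4 had medians at or below 0.0545 rpm in every pathology. CXCR3 reached 24.0 rpm in MCL, 0.390 in BL, 11.3 in ABC DLBCL and 7.07 in GCB DLBCL. ACKR4, a scavenger of chemokines, was lower in MCL than in BL by 3.27 on the log2 scale (-3.27 ± 0.86, adjusted p = 0.049).

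Other chemokines gave little signal. Of 3 testable CC chemokines CCL25 was higher in MCL than in GCB DLBCL by 0.90 ± 0.27 (limma, adjusted p = 0.016), which did not pass in the first class, and none of 8 CXC, XC or CX3C chemokines was called in any contrast. Of 12 testable ligands of the TNF superfamily 5 were higher in MCL than in GCB DLBCL in all lines and none in the first class. This contrast called 23.7% of all genes in all lines and 2.96% in the first class, in either direction. The 5 included CD70 (1.99 ± 0.52), TNFSF14 (1.97 ± 0.48), TNFSF10 (1.96 ± 0.45) and TNFSF12 (1.54 ± 0.37), with adjusted p between 0.0034 and 0.0078 by limma. TNFSF14 is a further ligand of LTBR and TNFSF10 is a death ligand. TNF itself averaged 7.28 in MCL and 8.44 in GCB DLBCL, a difference of -1.17 ± 1.002 (adjusted p = 0.40), and -1.90 ± 1.15 in the first class (adjusted p = 0.43). The median difference of these 12 was 0.70 and of all genes -0.02.

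Genes of the signalling pathways that are known to induce the ligands were counted from lists. Of 18 NF-kB factors and targets 4 were higher and 1 lower in MCL than in GCB DLBCL, among them IRF4, a factor of activated B cells, by 3.43 ± 1.11 (adjusted p = 0.025, and 0.023 in the first class), EBI3 by 3.19 ± 1.07 and the inhibitor NFKBIA by 1.55 ± 0.52, with REL, an NF-kB subunit, at -1.45 ± 0.47 (limma, adjusted p between 0.026 and 0.030 for these). IRF4 was the 1 call of this list in the first class. In ABC against GCB DLBCL 2 of the 18 were higher, TNFAIP3 by 3.48 ± 0.81 (adjusted p = 0.035) and NFKBIE by 2.17 ± 0.52 (adjusted p = 0.044), and none in the first class. Of 18 interferon gamma response genes 3 were higher in MCL than in GCB DLBCL, IRF1, GBP5 and IFNGR2, by 1.79 ± 0.47, 1.32 ± 0.40 and 1.13 ± 0.29 (limma, adjusted p between 0.0073 and 0.018), and GBP1 was higher in ABC than in GCB DLBCL by 3.802 ± 0.93 (adjusted p = 0.044), none of them in the first class.

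Of 10 testable genes of the STAT6 response, which drives CCL17 and CCL22 after interleukin-4, 3 were higher in MCL than in GCB DLBCL: FCER2, the low-affinity IgE receptor, by 3.28 ± 0.82, IL13RA1 by 2.47 ± 0.78 and CISH by 1.82 ± 0.42 (limma, adjusted p = 0.0064, 0.022 and 0.0035), and none in the first class. CISH was also higher in MCL than in BL by 2.55 ± 0.67 (adjusted p just under the threshold at 0.050), and IL4R, the interleukin-4 receptor, was lower in MCL than in BL in the first class, at -3.09 ± 0.54 (adjusted p = 0.0031, and 0.13 over all lines). Of 15 immediate-early and MAP kinase feedback genes, which respond to B-cell receptor stimulation as CCL3 and CCL4 do, 4 were higher in MCL than in GCB DLBCL. SPRY2, a feedback inhibitor of MAP kinase signalling, rose by 3.79 ± 0.46 (adjusted p = 2.1e-06, and 5.8e-05 in the first class), JUN by 1.71 ± 0.50, NR4A1 by 1.61 ± 0.51 and NR4A2 by 1.35 ± 0.38, and SPRY2 alone passed in the first class. SPRY2 was also higher in MCL than in ABC DLBCL (4.30 ± 0.58, adjusted p = 4.6e-05) and than in BL (4.29 ± 0.75, adjusted p = 0.0018). Of 7 other genes around the lymphotoxin locus 2 were called by the F test in all lines. In the contrasts between pathologies NFKBIL1 alone was called, higher in MCL than in GCB DLBCL by 0.79 ± 0.26 and than in ABC DLBCL by 1.40 ± 0.32 (limma, adjusted p = 0.027 and 0.031). In the first class these differences were 0.25 ± 0.24 (adjusted p = 0.65) and 1.18 ± 0.26 (adjusted p = 0.028). Among all genes in all lines, 23.7% were called in MCL against GCB DLBCL, 0.726% in ABC against GCB DLBCL, 1.17% in MCL against BL and 0.690% in MCL against ABC DLBCL. The F test called 13.2% in all lines. In the first class the shares were 2.96% in MCL against GCB DLBCL, 1.71% in MCL against BL and 0.785% in MCL against ABC DLBCL. No list was tested as a set, and nothing particular to a list follows from these counts.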

How the data were processed

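RNA sequencing of total RNA had been done on an Illumina instrument at several times, with 1 library per line. Per the submitters' processing notes, STAR 2.5.3a, R 3.6.1, DESeq2 1.26.0 and the GRCh38 build were used, and the counting step and its use of strand are not given in the sources used here. The authors deposited variance-stabilised values on a log2 scale for 31975 genes and 34 lines. These were inverted to whole reads, and 100% of values came out whole within 0.05, which gave 2.55 to 165 M reads per library and rpm (reads per 1000000). Levels are not compared between genes, since gene lengths were not used.

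Genes over 1 log2 unit above the lowest value in at least 3 lines (22167) were fitted with limma 3.58.1 in R 4.3.3, with a mean per pathology, a variance trend, an F test and 6 contrasts, and Benjamini-Hochberg adjustment over all genes tested at a threshold of 0.05. The fit was run on simulated reads with the depths of these libraries, in which chosen genes changed in MCL alone. No gene differed by library class in them, so that run cannot show how the fit handles the class. The first-class fit tested 21784 genes. The library class was defined from the values (0 reads of ZNF593 and EMC6). The members and the gene lists were chosen with earlier results of these data known. Some lists share genes: SOCS1, CXCL11, TNF and CCL18 are each in a pair of lists. Genes outside the members were named where they were called in a list, or ranked among the 3 most alike a member. SP-49 and SP-53 were the most alike libraries (r = 0.961 across genes) and were kept as separate samples because the labels name them as separate lines. Promoters came from RefSeq tables of GRCh38.p14. Python 3.11.15, NumPy 2.4.6, SciPy 1.17.1, pandas 2.3.3, Biopython 1.88 and matplotlib 3.10.9 were also used. Alternatives were another filter, centring, quantile normalisation, the library class as a covariate or restriction, voom on the recovered reads, log2 of rpm plus 1, normal scores, the re-analysed lines and each line left out. Summing the reads of gene copies was added after seeing the data.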

Additional observations from a re-analysis of the deposited data

How the results depend on the processing

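No direction of a called result reversed, and the cause of each change was not tested. The F test called 2937 genes and 3 ligands, and 799 genes and 1 ligand in the first class (the same with copies summed), 589 and 0 with the library class as a covariate, 1860 and 1 with voom, and 1908 genes with log2 rpm plus 1. MCL against GCB DLBCL called 5245 genes and 4 ligands, and 3277 genes under the stricter filter, 645 genes and 1 ligand in the first class (the same with copies summed), 522 and 1 with the covariate, and 2619 genes with voom. MCL against ABC DLBCL called 153 genes and 0 ligands, and 0 genes with normal scores (2461 at an unadjusted p under 0.05, limma). In the re-analysed lines it called 134 genes as higher and 39 as lower, and 1 ligand, CCL4. MCL against BL called 259 genes, 169 with log2 rpm plus 1, 0 with normal scores (2799 unadjusted) and 41 in the re-analysed lines. ABC against GCB DLBCL called 161 genes, 50 in the first class, 26 with the covariate, 0 with normal scores (3229 unadjusted) and 92 in the re-analysed lines. BL against GCB DLBCL called 34 genes, 55 with no filter, 20 under the stricter filter, 75 with quantile normalisation, 11 with the covariate, 17 with voom, 0 with normal scores (3427 unadjusted) and 52 in the re-analysed lines. BL against ABC DLBCL called 26 genes, 49 with quantile normalisation, 122 in the first class, 71 with voom, 0 with normal scores (2145 unadjusted) and 8 in the re-analysed lines. Leaving out 1 line gave 1898 (without WSU-DLCL2) to 3786 genes (without Toledo) in the F test and 2 to 4 ligands. It gave 4107 to 6129 genes and 3 to 5 ligands in MCL against GCB DLBCL. It gave 91 (without OCI-Ly10) to 243 (without JVM2) in MCL against ABC DLBCL, 53 (without Daudi) to 357 in MCL against BL, 25 (without OCI-Ly10) to 431 (without NU-DUL-1) in ABC against GCB DLBCL, 23 to 45 in BL against GCB DLBCL and 10 (without Daudi) to 55 (without SU-DHL-8) in BL against ABC DLBCL, with 0 ligands in each. Of 12 alternatives to the MCL against GCB DLBCL fit, CCL3 passed in 9, CCL4 in 8, CCL5 in 9 and CCL22 in 5, with adjusted p by limma of 0.00017 to 0.21, 0.00038 to 0.19, 0.0047 to 0.18 and 0.016 to 0.40. Summing the copies changed the values of CCL3 and CCL4 alone, so for the other ligands those fits repeat the unsummed ones and add no support. LTB was called in the fits with the covariate (-3.66), voom (-3.51) and log2 rpm plus 1 (-2.32). Depth limits the second-class libraries, where 0 reads allows up to 1.18 rpm. No paired analysis was possible because the replicate numbers are accession order and tie no lines together.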
